A study of Mus musculus with 72 samples.

Results

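Auts2 encodes a nuclear protein of a variant Polycomb repressive complex that activates transcription in neurons, and disruption of its human counterpart is associated with a neurodevelopmental syndrome. Very long genes that are transcribed in neural progenitor cells can hold recurrent DNA break clusters (RDCs), in which DNA double-strand breaks (DSBs) gather under replication stress. The Auts2 break cluster comprises here every junction within 0.5 Mb on either side of the coordinate that names the Auts2 RDC, which gives chr5:131400001-132400000 of GRCm38/mm10. Of 593366 junctions in 60 libraries, 252 lay in this window, and 176652 lay on a chromosome other than that of the bait.

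The junctions come from LAM-HTGTS, a translocation sequencing assay that starts with linear amplification. Cas9 cuts 1 known site, the bait, and sequencing from a primer next to that cut shows which other DNA end, the prey, the bait became joined to. The Xrcc4/p53-deficient cells were neural progenitor cells derived from embryonic stem cells, 1 line named Nxp010 of genotype NestinCre+Xrcc4-/-p53-/-, so that all such libraries share 1 line. They lack Xrcc4, a factor of nonhomologous end joining, and p53, so that treated and control libraries alike carry both deletions. The wild-type cells were primary neural stem and progenitor cells (NSPC) from brains of C57BL/6J embryos. Cells were given DMSO (solvent), aphidicolin (Aph, a DNA polymerase inhibitor that slows replication forks), ART558 (an inhibitor of DNA polymerase theta, which joins ends through short homologies) or Aph plus ART558. Aph was given at 0.5 µM for 72 h and 0.25 µM for 24 h, and ART558 at 5 µM and 2.5 µM over the same periods. The Xrcc4/p53-deficient libraries numbered 18 for DMSO, 9 for ART558, 9 for Aph and 9 for Aph plus ART558, and the wild-type libraries 7 for Aph and 8 for Aph plus ART558. Of these, 7 DMSO libraries baited on chromosome 6 and 4 DMSO and 3 Aph libraries baited on chromosome 14 lacked the theta collection tag that the titles of all other libraries carry, and none of these 14 had ART558. The labels do not say whether numbered libraries came from separate cultures. The study's reporting form describes the repeats of Xrcc4/p53-deficient cells as technical and those of wild-type cells as biological, whereas a figure legend speaks of independent biological replicates for the former. For Xrcc4/p53-deficient cells, p-values therefore measure the spread between libraries, which may be technical.

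The 4 baits and their sgRNA targets are shown because every junction starts from 1 of these cuts. Each target is written 5′ to 3′ on its own strand, and the capitals mark the PAM. The chromosome 6 target lies at chr6:70950106-70950125 and the chromosome 8 target at chr8:59477701-59477720, both on the minus strand. The chromosome 12 target lies at chr12:12994038-12994057 and the chromosome 14 target at chr14:83268830-83268849, both on the plus strand.
Chromosome 6 bait: gagggttggaaatgctcgtaTGG
Chromosome 8 bait: gtcgaccatatgctaatcttAGG
Chromosome 12 bait: attccgccaaccctcgagatAGG
Chromosome 14 bait: ggcttagttatagtaggggcTGG

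A junction joins such a bait to Auts2 in 1 of 3 ways, and examples of each are printed with the reference of bait and prey. In a micro-homology join the last bases of the bait are also the first bases of the prey, and these shared bases are in capitals. A chromosome 6 junction from Xrcc4/p53-deficient cells with Aph held a micro-homology of 2 bp, and its prey lay at chr5:132287811-132287840 on the plus strand, in intron 1, at 255 kb from the annotated start of Auts2.
2 bp, read: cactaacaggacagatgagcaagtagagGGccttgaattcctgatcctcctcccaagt
2 bp, bait reference: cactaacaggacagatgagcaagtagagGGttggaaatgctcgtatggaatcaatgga
2 bp, prey reference: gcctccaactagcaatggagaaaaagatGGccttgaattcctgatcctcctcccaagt
The longest micro-homology whose flanks matched the reference had 12 bp, in a chromosome 12 library with Aph, with prey at chr5:131913491-131913520 on the plus strand.
12 bp, read: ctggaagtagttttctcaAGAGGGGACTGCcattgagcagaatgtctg
12 bp, bait reference: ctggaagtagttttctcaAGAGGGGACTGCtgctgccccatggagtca
12 bp, prey reference: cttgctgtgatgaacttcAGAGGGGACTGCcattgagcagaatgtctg
In a direct join no base is shared, and the capitals mark the base on either side of the junction. The example has a chromosome 14 bait, Aph, and prey at chr5:132130549-132130578 on the plus strand.
Direct, read: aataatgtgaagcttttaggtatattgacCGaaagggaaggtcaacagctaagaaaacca
Direct, bait reference: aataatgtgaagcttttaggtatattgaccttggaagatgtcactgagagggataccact
Direct, prey reference: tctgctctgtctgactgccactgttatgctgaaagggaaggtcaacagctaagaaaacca
In an insertion, bases of neither side lie between bait and prey, and these are in capitals. The longest insertion with matching flanks had 21 bp, in a chromosome 12 library with Aph, with prey at chr5:132194307-132194336 on the plus strand.
Insertion, read: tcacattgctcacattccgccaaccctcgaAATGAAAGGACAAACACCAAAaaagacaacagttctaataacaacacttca
Insertion, bait reference: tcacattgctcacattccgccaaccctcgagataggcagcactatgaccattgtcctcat
Insertion, prey reference: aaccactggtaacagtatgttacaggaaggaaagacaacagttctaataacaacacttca
Over the whole window, 197 of 252 reads matched the reference over 30 bases on both sides of the junction.

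**Figure D1:**
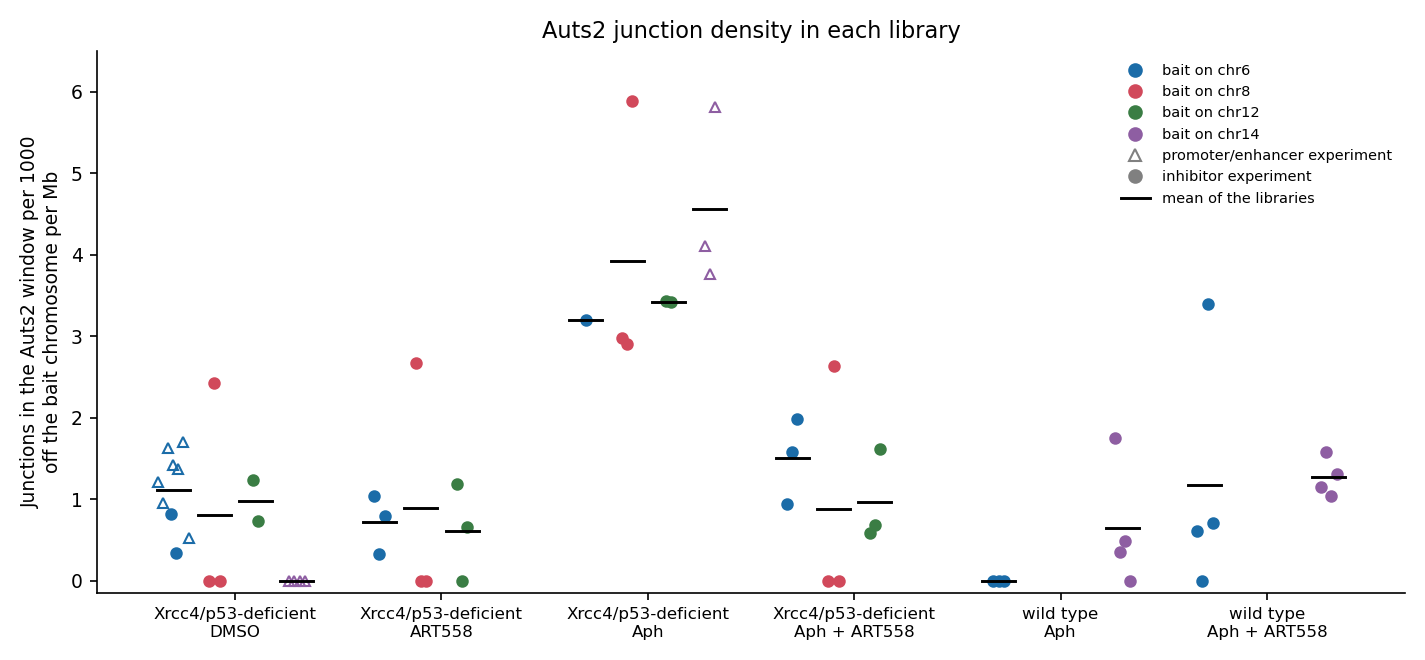
Each point is 1 library, placed by genotype and drug on the x axis and coloured by bait, and the y axis gives Auts2 junctions per 1000 junctions off the bait chromosome per Mb. Black lines are means of the libraries of 1 bait, with and without the theta collection tag. All 9 Xrcc4/p53-deficient Aph libraries lie at 2.90 or higher.

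Auts2 was chosen from its density in Xrcc4/p53-deficient cells with Aph and with Aph plus ART558, so these densities are given as values with no test. Density was counted as window junctions per 1000 junctions off the bait chromosome and per Mb, so junctions on the bait's own chromosome were left out. Without a drug that slows replication, Auts2 junctions were few, and with Aph they were denser with each of the 4 baits. With the chromosome 12 bait, the Aph libraries had 3.43 and 3.42, and the DMSO libraries had 1.23 and 0.731. With the chromosome 8 bait, the Aph libraries had 2.97, 2.90 and 5.88, and the DMSO libraries had 0, 2.43 and 0. The lone Aph library of the chromosome 6 bait had 3.20 (95% Wilson interval 1.91 to 5.36, counting error only), and the DMSO libraries with the theta collection tag had 0.821 and 0.337. The 7 DMSO libraries without that tag ranged from 0.524 to 1.70 (median 1.37, mean 1.26 ± 0.409, SD, n = 7). In each of these 3 baits every Aph library lay above every DMSO library. How often this holds at the other RDC windows was not counted.

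With ART558 added to Aph, the densities were lower. The libraries baited on chromosome 12 had 0.584, 0.682 and 1.61. Those baited on chromosome 6 had 0.942, 1.58 and 1.98, and those baited on chromosome 8 had 0, 2.63 and 0. Every one of these 9 libraries lay below every Aph library of its bait. Per 1000 of all junctions this held for chromosomes 12 and 6 but not for chromosome 8, where replicate 2 had 1.41 and the Aph libraries 0.507, 0.524 and 1.09. Separation of this kind was not counted at the other RDC windows. For chromosomes 12 and 8 no sequencing run held both drug groups, so drug and run cannot be told apart there, and the chromosome 6 libraries, with a lone Aph library, shared 1 run. The mean with Aph plus ART558 was 0.280 of the Aph mean for chromosome 12, 0.469 for chromosome 6 and 0.224 for chromosome 8, and these shares use the libraries that chose the gene. Per 1000 of all junctions the shares were 0.434, 0.587 and 0.663. All 12 junctions with the chromosome 8 bait came from replicate 2, and replicate 1 had only 339 junctions off the bait chromosome, which allows up to 8.85 at a count of 0.

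Conditions differed in bait make-up, whose part in their order was not tested. Xrcc4/p53-deficient cells with DMSO and with Aph had baits on chromosomes 6, 8, 12 and 14. Those with ART558, alone or with Aph, had none on chromosome 14, and wild-type cells had baits on chromosomes 6 and 14 only. Over the 6 conditions the mean densities took the following order. Xrcc4/p53-deficient cells with Aph had 3.94 ± 1.14 (SD, n = 9 libraries). Wild-type cells with Aph plus ART558 had 1.22 ± 1.002 (n = 8), of which 7 junctions lay at 1 position shared by 3 libraries. Without that position, described below, they had 0.634 ± 0.694, which lies under the DMSO and ART558 means of Xrcc4/p53-deficient cells. Xrcc4/p53-deficient cells with Aph plus ART558 had 1.11 ± 0.901 (n = 9). The lowest Aph library of the first group, at 2.90, lay above the highest library of every other condition except 1 wild-type library, at 3.39. Xrcc4/p53-deficient cells had 0.797 ± 0.742 with DMSO (n = 18) and 0.740 ± 0.853 with ART558 (n = 9), and wild-type cells with Aph had 0.370 ± 0.642 (n = 7). From the second place down, neighbours in this order differed by less than 1 SD, with or without the shared position. Among 107 RDC windows, Auts2 had the highest mean density in Xrcc4/p53-deficient cells with Aph, and ranked 7 with DMSO, 8 with ART558, 10 with Aph plus ART558, 53 in wild-type cells with Aph and 10 in wild-type cells with Aph plus ART558, or 26 without the shared position. These ranks use the mean over baits of the mean over libraries.

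The rest of chromosome 5 gives the local background. Over 136 bins of 1 Mb outside RDC windows, the mean was 9.93 junctions per bin in Xrcc4/p53-deficient cells with Aph, against 100 in the Auts2 window, a ratio of 10.1. The same ratio was 2.61 with DMSO, 1.74 with ART558 and 3.17 with Aph plus ART558. In wild-type cells it was 1.18 with Aph and 3.25 with Aph plus ART558, or 2.30 without the shared position. Single bins reached higher than Auts2 in each of the 5 conditions other than Xrcc4/p53-deficient Aph. The highest bin held 77 junctions against 57 at Auts2 with DMSO, 29 against 17 with ART558 and 57 against 47 with Aph plus ART558. In wild-type cells it held 66 against 7 with Aph and 73 against 24 with Aph plus ART558. With Aph in Xrcc4/p53-deficient cells it held 43.

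The chromosome 14 libraries of Xrcc4/p53-deficient cells set Aph beside DMSO at a further bait. Whether their Aph values entered the choice of the gene is not settled by the sources used here, so they too are given as values with no test. The Aph libraries had 4.11, 3.76 and 5.81, a mean of 4.56 ± 1.10 (SD, n = 3), from 6, 8 and 13 junctions. All 4 DMSO libraries had 0, and their 2553 junctions off the bait chromosome allow up to 1.18 at a count of 0. The groups did not overlap, and the difference was 4.56. Per 1000 of all junctions it was 1.02, again without overlap. Of 101 windows, groups without overlap and higher with Aph were found at 15.8% and lower with Aph at 0%. Aph replicate 3, the densest, was sequenced in another run than the other 6 libraries, and within their run the difference was 3.93 (6 libraries). Depth differed with the drug, since DMSO libraries held 137 to 918 junctions off the bait chromosome and Aph libraries 1460 to 2236, and its part in the difference was not tested.

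For ART558 given alone, no difference in Auts2 density was detectable. The mean in Xrcc4/p53-deficient cells over 3 baits was 0.740 with ART558 (9 libraries) and 0.789 with DMSO (7 libraries), a difference of -0.0494 (exact permutation test within baits, p = 0.910, adjusted p = 1 over 82 windows). By bait the difference was 0.140 for chromosome 6, 0.0798 for chromosome 8 and -0.368 for chromosome 12, each smaller than the SD of the ART558 libraries of that bait (0.362, 1.54 and 0.594). For chromosome 8 no sequencing run held both drug groups, so drug and run cannot be told apart there. A p under 0.05 was reached at 1.22% of the windows with ART558 higher and at 3.66% with ART558 lower. These libraries held 17 Auts2 junctions in each drug group, and the sign of the difference changed with the setting. Without DMSO replicate 2 of the chromosome 8 bait, which held both junctions of its group, the difference was 0.220. Of the ART558 libraries with this bait, replicate 1 held both junctions of the group. Replicate 3 had only 28 junctions off the bait chromosome, which allows up to 107 at a count of 0.

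The wild-type libraries, all from 1 sequencing run, address the effect of ART558 under Aph where nonhomologous end joining is intact. All 7 junctions of wild-type cells with Aph plus ART558 and the chromosome 6 bait lay at position 132240321 of chromosome 5 on the plus strand, in intron 2, at 303 kb from the start of Auts2. Replicates 1, 3 and 4 held 1, 5 and 1 of them, and no other position in the window was shared by libraries. All 7 were direct joins of the full bait end and were identical over the 60 bases printed below, with prey of 235 or 236 bases. The stretch of the read after the prey was different in each of the 7. The capitals again mark the base on either side of the junction, and the prey lies at chr5:132240321-132240350.
Shared, read: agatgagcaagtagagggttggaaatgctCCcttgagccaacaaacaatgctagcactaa
Shared, bait reference: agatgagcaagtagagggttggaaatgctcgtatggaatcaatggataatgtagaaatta
Shared, prey reference: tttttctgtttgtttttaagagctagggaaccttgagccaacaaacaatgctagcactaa
The 4 libraries of this group share 2.32% to 18.2% of their positions (share of the smaller library), against a median of 0.756% and a highest value of 9.14% over the other 463 pairs of libraries with the same bait. The part of shared libraries or shared molecules in this position was not tested. The density, rank, background ratio, strand counts, strand order and direct joins of this group are given with and without it.

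In wild-type cells with Aph, the 3 libraries of the chromosome 6 bait had 0 Auts2 junctions, which allows up to 0.851 over their pooled depth. The 4 libraries with Aph plus ART558 had 0.611, 0, 3.39 and 0.705. With the chromosome 14 bait the Aph libraries had 1.75, 0.352, 0.488 and 0, and the Aph plus ART558 libraries had 1.15, 1.58, 1.04 and 1.31. The Aph plus ART558 libraries of the chromosome 14 bait thus lay between 1.04 and 1.58, within the range of the Aph libraries. In the densest of these Aph libraries, 3 of 5 junctions lay within 3 bp of each other.

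Averaged over both baits, the density in wild-type cells was 0.899 higher with Aph plus ART558 than with Aph alone (exact permutation test within baits, p = 0.0196, adjusted p = 0.681 over 89 windows). It therefore did not pass the test over all windows. A p under 0.05 was found at 4.49% of the windows with Aph plus ART558 higher and at 1.12% with it lower. With the shared position left out the difference was 0.310 (p = 0.171, exact permutation test, 15 libraries). The difference was 1.18 for the chromosome 6 bait (exact permutation p = 0.229) and 0.620 for the chromosome 14 bait (exact permutation p = 0.171). Without replicate 3 of the chromosome 6 libraries with Aph plus ART558, it was 0.529. The unadjusted p rose above 0.05, to between 0.0522 and 0.0588 by the exact permutation test, without any 1 of 5 chromosome 14 libraries, replicates 2, 3 and 4 with Aph and replicates 2 and 4 with Aph plus ART558.

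The genotypes could be set side by side at the chromosome 14 bait with Aph. Wild-type libraries had 0.648 ± 0.765 (SD, n = 4) and Xrcc4/p53-deficient libraries 4.56 ± 1.10 (n = 3), with no overlap between 1.75, the highest of the former, and 3.76, the lowest of the latter. The difference was -3.91, given with no test for the same reason as above. No overlap with wild type lower was found at 21.8% of the windows and with wild type higher at 0%. The absence of overlap depends on the total used. Per 1000 of all junctions, the wild-type libraries had 1.10, 0.231, 0.303 and 0 and the Xrcc4/p53-deficient libraries 0.793, 0.779 and 1.48, so that the groups overlapped and the difference was -0.607. Junctions off the bait chromosome made up 62.04% to 65.8% of these wild-type libraries and 19.3% to 25.4% of the Xrcc4/p53-deficient ones. The Xrcc4/p53-deficient libraries are the 3 of the Aph against DMSO comparison above. No sequencing run held both genotypes, and cell source and the theta collection tag differ as well, so genotype, run and cell source cannot be told apart.

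**Figure D2:**
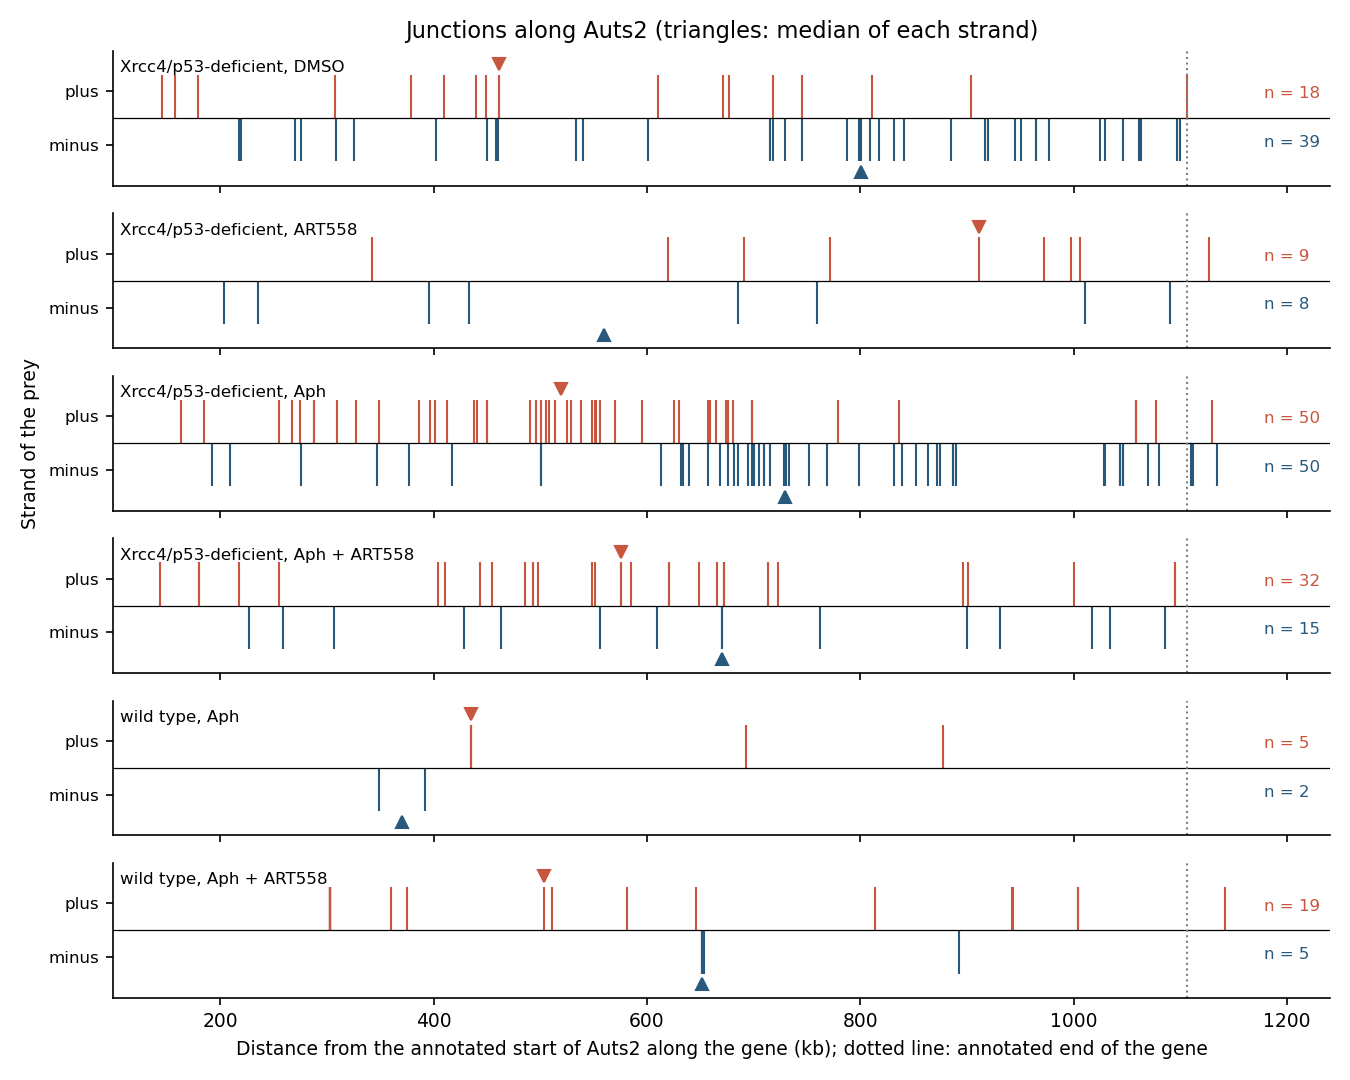
Each tick is 1 junction at its distance in kb from the annotated start of Auts2, with plus-strand prey above and minus-strand prey below the line, in 1 panel for each condition, and triangles mark medians. With Aph in Xrcc4/p53-deficient cells the plus-strand median lies at 519 kb and the minus-strand median at 730 kb.

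Auts2 lies on the minus strand from 131437333 to 132543344 and spans 1106 kb, of which the window covers 87.0%. The first 143 kb of the gene lie outside the window and held another 20 junctions. In the window, 245 junctions lay in the gene and 7 beyond its 3′ end, within 37.3 kb. All 245 were in introns of the longest annotated transcript, which has 19 exons, and 1 of them overlapped an exon of another transcript. The 4 longest introns held most junctions. Intron 4 (131770790 to 132030989, 260 kb) held 85, intron 2 (132050410 to 132258923, 209 kb) held 57, intron 5 (131533873 to 131770759, 237 kb) held 45 and the 141 kb of intron 1 in the window held 24.

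Per length, density differed among the introns without following their order along the gene. Intron 3 is short, at 19.3 kb, and held 9 junctions, 46.7 per 100 kb, of which 6 came from Xrcc4/p53-deficient cells with Aph. Intron 4 held 32.7 per 100 kb, intron 6 28.2, intron 2 27.3 (24.0 without the shared position), intron 5 19 and intron 1 17.0. The counts in intron 3 and the 16 in intron 6 are small. With Aph in Xrcc4/p53-deficient cells, 42 of 100 junctions lay in intron 4, whereas with DMSO 17 of 57 lay in intron 5, 13 in intron 2 and 12 in intron 4. In bins of 100 kb, the bin from 643 to 743 kb after the start held 23 of the 100 Aph junctions, and the other 9 bins held 4 to 14 each. The central 300 kb held 49.0% of the junctions with Aph, 42.6% with Aph plus ART558 and 22.8% with DMSO in Xrcc4/p53-deficient cells, as a description over pooled libraries. The window is centred on the coordinate that names the RDC. The part of that placing in these shares, and in the lower density beyond the window, was not tested.

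**Figure D3:**
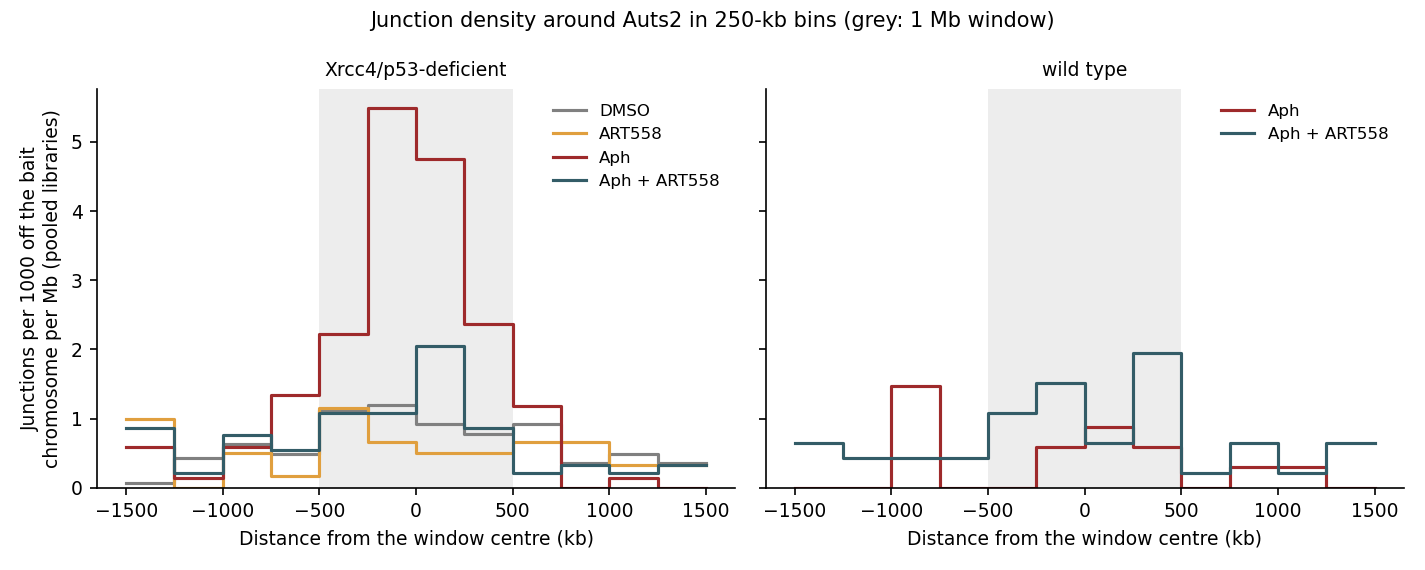
Pooled junction density per 1000 off the bait chromosome per Mb in bins of 250 kb against the distance in kb from the window's centre, toward higher coordinates, for Xrcc4/p53-deficient cells on the left and wild-type cells on the right. The grey band is the window. In Xrcc4/p53-deficient cells with Aph the density reaches 5.49 in the bin just below the centre and 0 in the bin from 750 to 1000 kb above it.

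Beyond the window the density with Aph was lower on both sides. In bins of 250 kb across 3 Mb, the pooled density in Xrcc4/p53-deficient cells with Aph was 2.23, 5.49, 4.75 and 2.37 inside the window. It was 1.34 in the next bin on the low side, toward the gene's 3′ neighbour Galnt17, and 1.19 in the next bin on the high side, which holds the start of Auts2. With DMSO the highest bin reached 1.20 and the lowest inside the window 0.778. Galnt17, which encodes a glycosyltransferase, lies 129 kb from Auts2 on the same strand and spans 436 kb. It held 46 junctions, 10.5 per 100 kb, against 265 in Auts2, 24.0 per 100 kb. Per 1000 junctions off the bait chromosome, pooled over Xrcc4/p53-deficient libraries, Galnt17 had 0.371 with Aph (10 junctions) and 0.265 with DMSO (15), and Auts2 had 3.82 (103) and 1.17 (66).

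Strand says which side of the break was joined. Prey on the plus strand runs from the junction toward higher coordinates, which in Auts2 is toward the start of the gene, and prey on the minus strand runs toward its end. Over all libraries 133 junctions were plus and 119 minus. With Aph, Xrcc4/p53-deficient cells had 50 of each. With DMSO 31.6% were plus (18 of 57, Wilson interval 21 to 44.5), and with Aph plus ART558 68.1% were plus (32 of 47, 53.8 to 79.6). In wild-type cells with Aph plus ART558 19 of 24 were plus, and 12 of 17 without the shared position. These shares pool libraries and were not tested.

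The strands were arranged differently along the gene. In all 9 of the Aph libraries from Xrcc4/p53-deficient cells, plus-strand junctions lay nearer the start of Auts2 than minus-strand junctions. In the chromosome 12 libraries the plus-strand means were 510 and 554 kb from the start and the minus-strand means 664 and 765 kb. In the chromosome 8 libraries the plus-strand means were 553, 316 and 381 kb and the minus-strand means 864, 752 and 756 kb. The chromosome 6 library had 660 and 743 kb, and the chromosome 14 libraries had plus-strand means of 414, 779 and 660 kb and minus-strand means of 775, 843 and 754 kb. Some of these means rest on few junctions, as 1 plus-strand junction in chromosome 14 replicate 2 and 1 minus-strand junction in chromosome 8 replicates 1 and 2.

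The mean separation was 232 ± 142 kb (SD, n = 9 libraries, range 64.2 to 436), positive in 9 of 9 (two-sided exact sign-flip permutation test, p = 0.00391, the smallest possible). Neither strand nor position entered the choice of the gene. The arrangement is not particular to Auts2. Of 11 RDC windows with 6 or more such libraries, 45.5% passed the same test with plus-strand junctions at higher coordinates and 0% the other way, the mean separation was positive at 9, and the median was 168 kb, with Auts2 highest. In the other conditions, the pooled medians of plus and minus strands were 461 and 801 kb with DMSO, 576 and 670 kb with Aph plus ART558, and 912 and 560 kb with ART558. In wild-type cells they were 435 and 371 kb with Aph and 504 and 652 kb with Aph plus ART558. The 504 kb includes the 7 junctions of the shared position, at 303 kb. Without them the middle values of the 12 plus-strand junctions were 646 and 814 kb, whose midpoint lies farther from the start than 652 kb. The order is the opposite one with ART558, over 9 plus-strand and 8 minus-strand junctions, and in wild-type cells with Aph, over 5 and 2. It is also the opposite one in wild-type cells with Aph plus ART558 without the shared position, over 12 and 5.

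**Figure D4:**
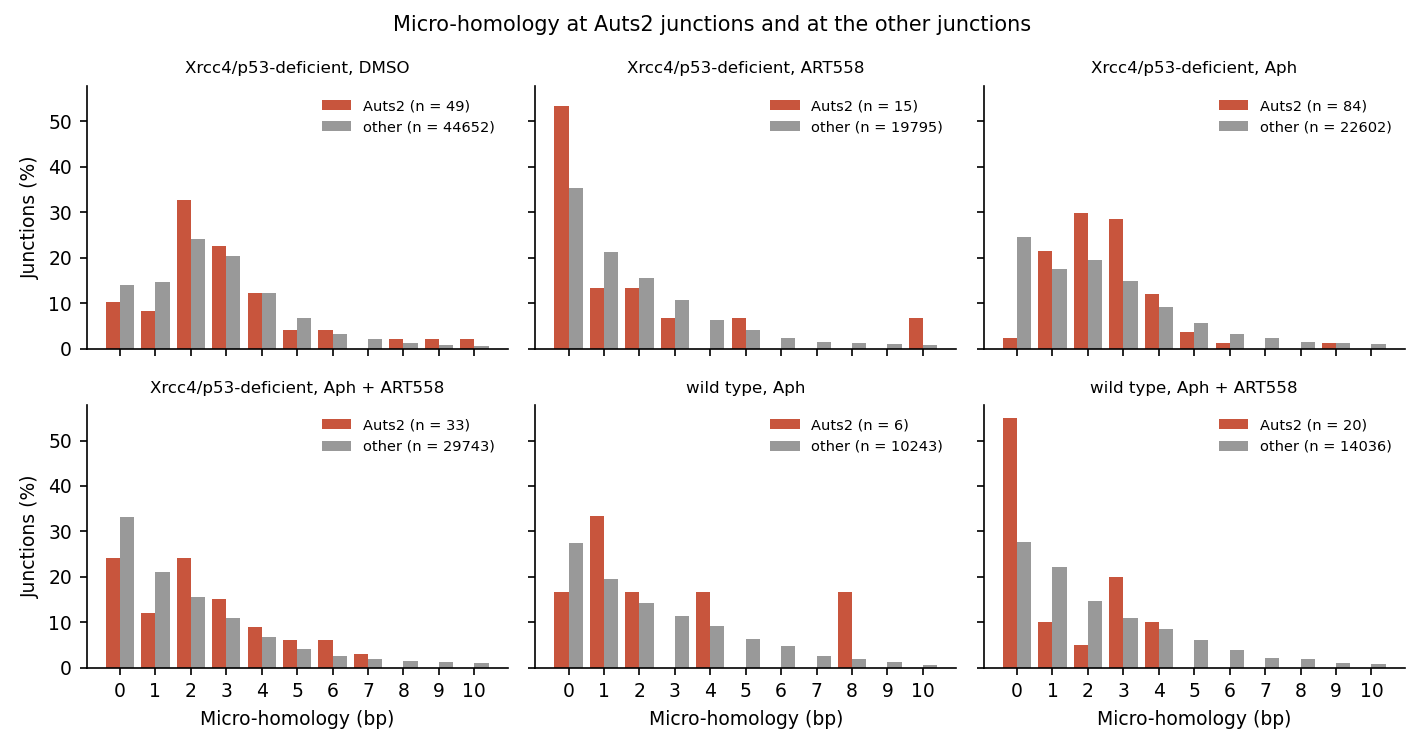
Share in percent of the junctions with 0 to 10 bp of micro-homology, by length in bp, for the Auts2 window and for the other junctions off the bait chromosome, in 1 panel for each condition with pooled libraries. In Xrcc4/p53-deficient cells with Aph, 2.38% of the Auts2 junctions and 24.6% of the others have 0 bp.

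Joins at Auts2 mostly used short homologies. Of all 252 junctions, 207 had 0 to 10 bp of micro-homology, 3 had more, up to 12 bp, and 42 carried an insertion, 15 of them of 1 bp and 8 of 10 bp or more, up to 27 bp. The most frequent lengths were 2 bp with 53 junctions and 3 bp with 45, and 35 were direct. Of the shared bases, 50.6% were G or C, against 44.5% of the first 30 prey bases and 43.8% of the window. Among 2 bp homologies the most frequent dinucleotide, GG, was found 7 times in 53. Such junctions came from each bait, as in a chromosome 8 library with prey at chr5:131671841-131671870 and a chromosome 12 library with prey at chr5:131656587-131656616, both on the minus strand with Aph, where the capitals mark the shared bases.
Chromosome 8, 2 bp: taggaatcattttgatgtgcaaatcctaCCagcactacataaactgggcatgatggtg
Chromosome 12, 2 bp: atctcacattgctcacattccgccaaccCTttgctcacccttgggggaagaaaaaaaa
Chromosome 12, 3 bp: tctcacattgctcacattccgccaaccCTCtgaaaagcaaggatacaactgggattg
The last of these, with prey at chr5:131433286-131433315 on the minus strand, lies beyond the 3′ end of the gene.

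Direct joins in Xrcc4/p53-deficient cells with Aph were rare at Auts2. Of 84 junctions with 0 to 10 bp, 2 were direct, 2.38% (Wilson interval 0.655 to 8.27), against 24.6% of 22602 other junctions off the bait chromosome in the same libraries. In 8 of 9 libraries none of 3 to 15 Auts2 junctions was direct, while 18.0% to 30.2% of the other junctions were. Both direct joins came from chromosome 14 replicate 3, with 2 of 13.

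Within libraries, the direct share at Auts2 minus that of the other junctions was -20.3 ± 7.40 percentage points (SD, n = 9 libraries, range -30.2 to -4.81) and below 0 in 9 of 9 (two-sided exact sign-flip permutation test, p = 0.00391, the smallest possible). Against junctions in the other RDC windows, an alternative chosen after seeing the data, the mean difference was -14.7. Of 71 RDC windows with 6 or more libraries, 16.9% passed the same test with a lower direct share and 0% with a higher one. The mean was below 0 at 57 of them, with a median of -8.34 points, and 2 lay lower than Auts2.

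With DMSO, 5 of 49 Auts2 junctions were direct (10.2%, 4.44 to 21.8) and 14.04% of the others. With ART558 in Xrcc4/p53-deficient cells, 8 of 15 were direct (53.3%, 30.1 to 75.2) and 35.3% of the others. With Aph plus ART558, 8 of 33 were direct (24.2%, 12.8 to 41.0) and 33.2% of the others. Homologies of 2 bp or more made up 76.2% at Auts2 with Aph, 63.6% with Aph plus ART558, 81.6% with DMSO and 33.3% with ART558. In the same order the other junctions had 58.0%, 45.8%, 71.2% and 43.4%. These are shares of pooled junctions with counting intervals and were not tested between drugs, whose libraries differ in bait make-up, since the chromosome 6 bait gave 47 of the 57 Auts2 junctions with DMSO and 14 of the 100 with Aph. In wild-type cells, 1 of 6 was direct with Aph, and 11 of 20 with Aph plus ART558, of which 7 are the shared position, leaving 4 of 13.

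Insertions made up 13.0% of the Auts2 junctions with Aph in Xrcc4/p53-deficient cells (13 of 100, Wilson interval 7.76 to 20.98) and 13.4% of the others. With Aph plus ART558 they made up 29.8% (14 of 47, 18.6 to 43.98) at Auts2 and 16.4% of the others, and 9 of these 14 came from the chromosome 6 libraries. With DMSO 14.04% of the Auts2 junctions carried one.

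The bait ends joined to Auts2 were longer than those joined elsewhere in the same Aph libraries. With Aph in these cells, a median of 11 bait bases before the cut was missing at Auts2 junctions and 37 at the other junctions. Fewer were missing at Auts2 in 9 of 9 libraries, where the medians differed by -53.5 to -5 bases (mean -27.4 ± 18.3, SD). The comparison was added after these values were seen, has no test and was not made for the other RDC windows. The size differed by bait, with -5 for the chromosome 6 library, -15 to -5 for chromosome 8, -38 and -37 for chromosome 12 and -53.5 to -35.5 for chromosome 14. In the other conditions of these cells, the pooled medians at Auts2 and elsewhere were 12 and 12 with DMSO and 45 and 43 with ART558. With Aph plus ART558 they were 31 and 43. In wild-type cells they were 1 and 57 with Aph, over 7 Auts2 junctions. Wild-type cells with Aph plus ART558 had 22 and 59, with the shared position and its full bait end included.

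**Figure D5:**
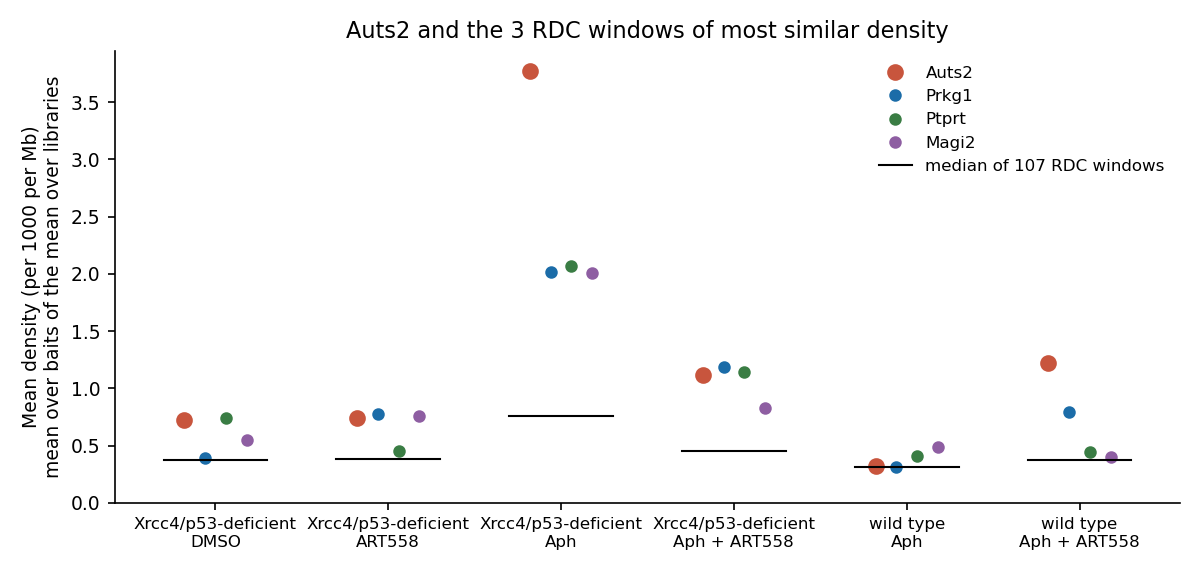
Mean density per 1000 per Mb of the Auts2 window and of the 3 RDC windows of most similar density on chromosomes without a bait, by condition, each the mean over baits of the mean over libraries, with the median of 107 RDC windows as a black line. In Xrcc4/p53-deficient cells with Aph the 3 windows have 2.01 to 2.07.

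Among RDC windows on chromosomes without a bait, the 3 whose mean densities over the 6 conditions were nearest to those of Auts2, by the root mean square difference, were Prkg1 (0.751), Ptprt (0.774) and Magi2 (0.812). On the bait chromosomes, where the mean rests on fewer baits, Ctnna2 was nearer than these, at 0.559. Without the shared position the same 3 were nearest off the bait chromosomes, with Ptprt (0.710) before Prkg1 (0.733). Prkg1, which encodes a cGMP-dependent protein kinase, had 2.02 with Aph and 1.19 with Aph plus ART558 in Xrcc4/p53-deficient cells. Ptprt, a receptor tyrosine phosphatase gene, had 2.07 and 1.15, and Magi2, a synaptic scaffold gene, had 2.01 and 0.830. With DMSO the 3 had 0.394 to 0.740. The likeness is a description over 6 conditions that share depth and baits.

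Auts2 protein acts with variant Polycomb complex subunits, casein kinase 2 and the acetyltransferase Ep300, and these 12 partner and related genes were counted for comparison. They held 0 to 10 junctions each over all libraries, with none at Ring1 and Csnk2b and 10 at Ep300, and 0 to 2 each in Xrcc4/p53-deficient cells with Aph. They are far shorter than Auts2, at 3.89 to 113 kb.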

How the data were processed

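LAM-HTGTS libraries were analysed from Xrcc4/p53-deficient neural progenitor cells and wild-type NSPC. Per the paper's methods, reads were demultiplexed and trimmed with the TranslocProcess step of the HTGTS pipeline, aligned to mm10 with Bowtie2 and filtered for junctions; versions are not given in the sources used here. The values are coordinates and read positions deposited by the authors as 1 line per junction, without normalization. The file of 1 ART558 library ended within a line, which was left out. Whole-genome, GRO-seq and Repli-seq data were not analysed here.

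Prey on the assembled autosomes and sex chromosomes was kept, and 0 to 4.48% of a library lay elsewhere. Repeated positions were kept in counts. Micro-homology was the overlap of bait and prey in the read. RDC positions came from the paper's supplement, as points without extent, and the window, the members and the lists were chosen with earlier results of these data known. The named genes were Auts2, the 3 most similar windows, neighbouring genes and a list of partners. Positions were set on GRCm38, whose chromosome names match the files, with GENCODE M21. Introns were numbered on the longest annotated transcript, a rule settled after shorter transcripts proved to span only part of the gene. Tests over libraries were two-sided and exact, with labels permuted within baits or signs flipped, with Benjamini-Hochberg adjustment over windows and a threshold of 0.05. The permutation p was taken as 2 times the smaller tail, as SciPy does. Tests planned for Aph against DMSO and for genotype at the chromosome 14 bait are not reported, since it is not settled that those Aph libraries stayed out of the choice of the gene. A first run had taken the share of labellings with an absolute difference as large, so this rule was settled after values had been seen, and both are given for the 2 density tests reported. Intervals are Wilson intervals of 95%, and a count of 0 allows 3 counts. Without molecular identifiers a read is no independent molecule, so both cover counting error only. Sequencing runs, 11 in all, were read from the read names. Alternatives were other windows, totals, junction sets and libraries left out. Python 3.11.15, NumPy 2.4.6, pandas 2.3.3, SciPy 1.17.1 and Matplotlib 3.10.9 were used, and the tests were checked on simulated data.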

Additional observations from a re-analysis of the deposited data

How the results depend on the processing

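The Aph minus DMSO difference at the chromosome 14 bait was 1.02 to 5.62 over 18 alternatives, and 3.93 to 4.96 with a library left out. As all 4 DMSO libraries were at 0, its direction says nothing of stability. The wild-type minus Xrcc4/p53-deficient difference was -4.74 to -0.607 over 16, and -4.31 to -3.29. The planned tests of these 4.56 and -3.91 are not used, since the Aph libraries may have entered the choice of the gene. Per 1000 of all junctions the values were the lowest in size, 1.02 and -0.607, the latter with groups that overlapped. Taking p as the share of labellings with an absolute difference as large gave an exact permutation p of 0.0371 for ART558 under Aph in wild-type cells (adjusted p = 0.618) and of 0.904 for ART558 minus DMSO (adjusted p = 0.980).

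The ART558 minus DMSO difference turned positive in 11 of 29 alternatives: 0.336 in a window of 0.5 Mb, 0.183 per 1000 of all junctions, 0.0987 without libraries under 1000 junctions, 0.140 in the run of the chromosome 6 bait, and in 7 of the fits with a library left out, which ranged from -0.346 to 0.220. No alternative passed the threshold.

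The wild-type difference stayed positive but missed the threshold in a window of 0.5 Mb (0.311), in 2 Mb (0.489), with each position counted once per library (0.544), with labels permuted over all libraries (0.852), with the chromosome 14 bait alone (0.620), without the shared position (0.310) and in 5 of 15 fits with a library left out (0.791 to 0.892, of 0.529 to 1.09 over all 15). With junctions of 1 strand within 10 bp counted once per library it was 0.549 and passed (exact permutation p = 0.0098). With a replicate block it was 0.977 (p = 0.0938, exact permutation test, n = 14). Whether library numbers pair the samples is not settled. Deviations of same-numbered libraries correlated at -0.101 to 0.0753 here over 76 windows, but counts per window and library are too low for this to exclude a pairing. The replicate block gave 4.56 for Aph minus DMSO and -0.0684 (exact permutation p = 0.906) for ART558 minus DMSO, with no change of call for the latter.

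The strand separation was 168 to 311 kb and 207 to 253 kb with a library left out. It missed the threshold only in the 3 chromosome 14 libraries alone (173 kb), where p cannot fall below 0.25. The difference in direct joins was -15.1 points in those libraries, -22.3 to -19.1 with a library left out, and -11.4 (exact sign-flip permutation p = 0.106) when Aph plus ART558 libraries were added. The shared position, the chromosome 14 bait alone, junctions within 10 bp and the rule for p were chosen as alternatives after seeing the data. Depth limits single libraries, of which 16 held no Auts2 junction.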
